A study of Mus musculus with 26 samples.

Results

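Eosinophil granule and ribonuclease genes were followed through 8 sorted populations of mouse blood stem and progenitor cells. The 9 genes were chosen by name, with earlier results of these data known. They were Prg2 and Prg3, which encode the major basic protein of the granule core and its close relative, and Epx, which encodes eosinophil peroxidase. The others were the eosinophil-associated ribonuclease genes Ear1, Ear2, Ear6 and Ear10, and Rnase12 and Rnase6, further members of the RNase A family. Of the 9 genes, 6 had a probe set of their own among the 19938 genes measured, 1 each. None of those probe sets was shared with another gene. Ear1, Ear2 and Ear10 had none and are not analysed here. The probe set of Ear6 lists 2 RefSeq accessions, of which 1 is that of Ear6 and the other matched no gene of the reference table. Because the Ear genes are near copies of each other, the signal named Ear6 may include RNA of other Ear genes.

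Eosinophils store cytotoxic proteins in large granules, and they make most of the RNA for these proteins while still maturing in the bone marrow. Major basic protein forms the crystalline core of the granule and damages parasite and host membranes, eosinophil peroxidase turns halides into oxidants, and the Ear ribonucleases are the mouse relatives of the human eosinophil granule ribonucleases. Transcription factors of the GATA and C/EBP families act together on such genes, and Gata1 is required for the eosinophil lineage. RNase 6, in contrast, is an antimicrobial ribonuclease known from monocytes, lymphocytes and other tissues as well.

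The cells came from bone marrow of mice aged 8 to 15 weeks that were Gata1-EGFP Tg/+, that is, carried a transgene whose green fluorescent protein (GFP) reports activity of Gata1 control sequences, so that all 8 groups share the reporter. Granulocyte-macrophage progenitors (GMP) were lineage-negative, Kit-positive, Sca1-negative, CD41-negative cells with Fc gamma receptors II/III, sorted without (GMP GFP-, 4 arrays) or with reporter signal (GMP GFP+, 3 arrays). Pre-granulocyte-macrophage progenitors (PreGM) lacked these Fc receptors, CD150 and CD105, and were split likewise (PreGM GFP- and PreGM GFP+, 3 arrays each), and pre-megakaryocyte-erythroid progenitors (PreMegE, 3 arrays) differed from them by CD150, with no reporter gate stated. The other populations were haematopoietic stem cells (HSC GFP-, positive for Kit, Sca1 and CD150, 3 arrays), lymphoid-primed multipotent progenitors (LMPP, positive for Kit and Sca1 with high Flt3, reporter-negative, 4 arrays) and common lymphoid progenitors (CLP, with low Kit and Sca1, Flt3 and the interleukin-7 receptor, 3 arrays). Reporter-positive stem cells are not analysed here. Whether arrays of a group stem from different animals is not stated in the labels; p-values therefore describe only the scatter of these arrays, and part of it may be technical.

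Signals are log2 values from Mouse Gene 1.1 ST arrays, and the median of all values, 6.61, served as a mark of low signal: a difference from a group under it is given on the signal scale alone and is not turned into a fold. A gene is called here when its adjusted p from limma, over all 19938 genes, was under 0.05. Gata1 followed the reporter gates: it averaged 8.08 in GMP GFP+ against 6.42 in GMP GFP-, and 8.48 in PreGM GFP+ against 6.73 in PreGM GFP-. The array-wise mean deviation of 10 lymphoid genes from their means was 2.10 to 3.18 in CLP and at most 1.01 elsewhere. The CLP arrays thus carried the lymphoid markers of their label. For 16 neutrophil granule genes this deviation was 1.75 to 2.94 in GMP GFP- and at most 0.85 elsewhere. The GMP GFP+ arrays, of the same gate, were at 0.05 to 0.85, so this list sets GMP GFP- apart and does not check the GMP label. Array medians ranged from 6.42 to 6.70.

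The 250 bases before the transcription start are shown for Prg3, Epx, Ear6 and Rnase12, whose signal was highest in GMP GFP+, and for Ear2, which stands for the Ear genes that had no probe set. They are RefSeq sequences of build GRCm38.p6, written 5′ to 3′ on the strand of the gene. Capitals mark the only matches found to a GATA motif (AGATAA or TGATAA), an ETS motif (GAGGAA), a C/EBP motif (TTGCNNAA) or a TATA motif (TATAAA or TATATA), searched on both strands. The windows are those of Prg3 (chr2:84987965-84988214, plus strand), Epx (chr11:87875537-87875786, minus strand), Ear6 (chr14:51853518-51853767, plus strand), Ear2 (chr14:44102404-44102653, plus strand) and Rnase12 (chr14:51057243-51057492, minus strand).
Prg3: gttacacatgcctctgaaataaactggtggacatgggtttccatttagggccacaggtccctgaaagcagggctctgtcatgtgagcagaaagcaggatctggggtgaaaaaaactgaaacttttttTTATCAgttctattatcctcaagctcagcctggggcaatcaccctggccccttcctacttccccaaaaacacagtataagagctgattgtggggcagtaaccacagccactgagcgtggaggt
Epx: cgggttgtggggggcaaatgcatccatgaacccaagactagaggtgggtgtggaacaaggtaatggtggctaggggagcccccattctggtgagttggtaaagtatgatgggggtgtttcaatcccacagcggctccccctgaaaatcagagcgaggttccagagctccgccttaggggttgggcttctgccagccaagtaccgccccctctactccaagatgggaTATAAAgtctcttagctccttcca
Ear6: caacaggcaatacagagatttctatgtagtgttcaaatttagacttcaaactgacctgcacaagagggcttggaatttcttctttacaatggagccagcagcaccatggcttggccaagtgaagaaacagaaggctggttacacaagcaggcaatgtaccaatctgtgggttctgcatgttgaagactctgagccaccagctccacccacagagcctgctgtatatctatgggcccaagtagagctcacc
Ear2: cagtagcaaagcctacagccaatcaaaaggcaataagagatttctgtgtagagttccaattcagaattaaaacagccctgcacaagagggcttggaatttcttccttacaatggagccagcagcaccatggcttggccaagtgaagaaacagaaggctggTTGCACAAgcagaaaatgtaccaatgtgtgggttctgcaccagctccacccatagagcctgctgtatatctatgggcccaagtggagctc
Rnase12: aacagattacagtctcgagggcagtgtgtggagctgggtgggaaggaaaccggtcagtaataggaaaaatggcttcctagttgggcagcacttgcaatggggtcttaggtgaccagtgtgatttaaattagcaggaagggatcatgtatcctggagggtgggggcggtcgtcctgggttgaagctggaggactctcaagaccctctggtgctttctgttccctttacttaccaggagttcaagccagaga
The window of Prg3 holds 1 GATA motif, read on the opposite strand as TTATCA, 123 to 118 bases before the start. That of Epx has TATAAA at 24 to 19 bases, and that of Ear2 has TTGCACAA, a form of the C/EBP motif, at 90 to 83 bases. Those of Ear6 and Rnase12 hold none of the motifs. Among 32851 windows of the same length over 27025 genes, 16.6% hold either GATA motif, 23.3% the ETS motif, 9.56% the C/EBP motif, 12.4% TATAAA and 5.25% TATATA. A match is a description of the letters and not a binding site, and its absence here says nothing about a factor.

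The windows of Ear1, Ear2 and Ear10 are nearly the same sequence. Ear1 and Ear2 are 97.6% identical, Ear1 and Ear10 91.7%, and Ear2 and Ear10 91%, and each of the 3 holds TTGCACAA. The Ear6 window is 78.2% identical to that of Ear1, 77.7% to that of Ear2 and 79.9% to that of Ear10, and has no match to that motif. All other pairs of members lie between 48.2% and 51.9%. Of the 9 members, 8 matched the table, with 10 windows in all.

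The first comparison asks how reporter-positive and reporter-negative cells of the GMP gate differ. All 6 measured genes were higher in GMP GFP+, where 3.22% of all genes were called higher. Since the genes were chosen with earlier results of these data known, this count is a description only. Prg2, Prg3, Epx, Ear6 and Rnase12 averaged at or under the median signal in GMP GFP- and lay far above it in every GMP GFP+ array, and Rnase6 was above it in both groups. The median difference of the 6 genes was 4.71, against 0.08 over all genes. In bulk samples such as these, fewer cells that express a gene and less RNA per cell cannot be told apart.

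Of the granule protein genes, Prg2 read 12.86, 12.85 and 12.09 in the GMP GFP+ arrays and 6.18, 7.05, 6.29 and 5.89 in the GMP GFP- arrays. The groups did not overlap, and their means differed by 6.25 (SE 0.46, adjusted p = 2.53e-09), which ranked 2 by size among all genes. Prg3 read 11.26, 11.09 and 10.42 with the reporter and 6.003, 6.43, 6.59 and 7.41 without it, a difference of 4.32 (SE 0.26, adjusted p = 1.08e-10). The third GMP GFP+ array was the lowest for both genes, and none of its values overlapped the negative group. Epx read 8.77, 9.14 and 8.86 with the reporter, and 5.49, 5.55, 5.63 and 5.66 without it. Its difference of 3.34 had the smallest error of the 6 genes (SE 0.15, adjusted p = 2.4e-12), and all 4 negative arrays were under the median signal.

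Of the ribonuclease genes, Ear6 read 11.42, 11.80 and 10.04 in GMP GFP+ and 5.80, 5.90, 5.80 and 5.89 in GMP GFP-. Its difference was 5.24 (SE 0.27, adjusted p = 8.35e-12), and its positive arrays spread more widely (SD 0.92, n = 3) than its negative arrays (SD 0.06, n = 4). Rnase12, which encodes a little-studied RNase A family protein, read 11.82, 12.08 and 11.13 with the reporter and 6.18, 7.11, 5.40 and 7.64 without it, a difference of 5.10 (SE 0.47, adjusted p = 1.15e-07). Unlike those of Ear6, the negative arrays of Rnase12 were scattered, and 2 of the 4 lay above the median signal. Rnase6 read 10.17, 10.90 and 10.60 with the reporter and 7.16, 7.54, 6.76 and 7.18 without it, a difference of 3.40 (SE 0.46, adjusted p = 3.56e-05) between groups that both lay above the median signal.

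**Figure D1:**
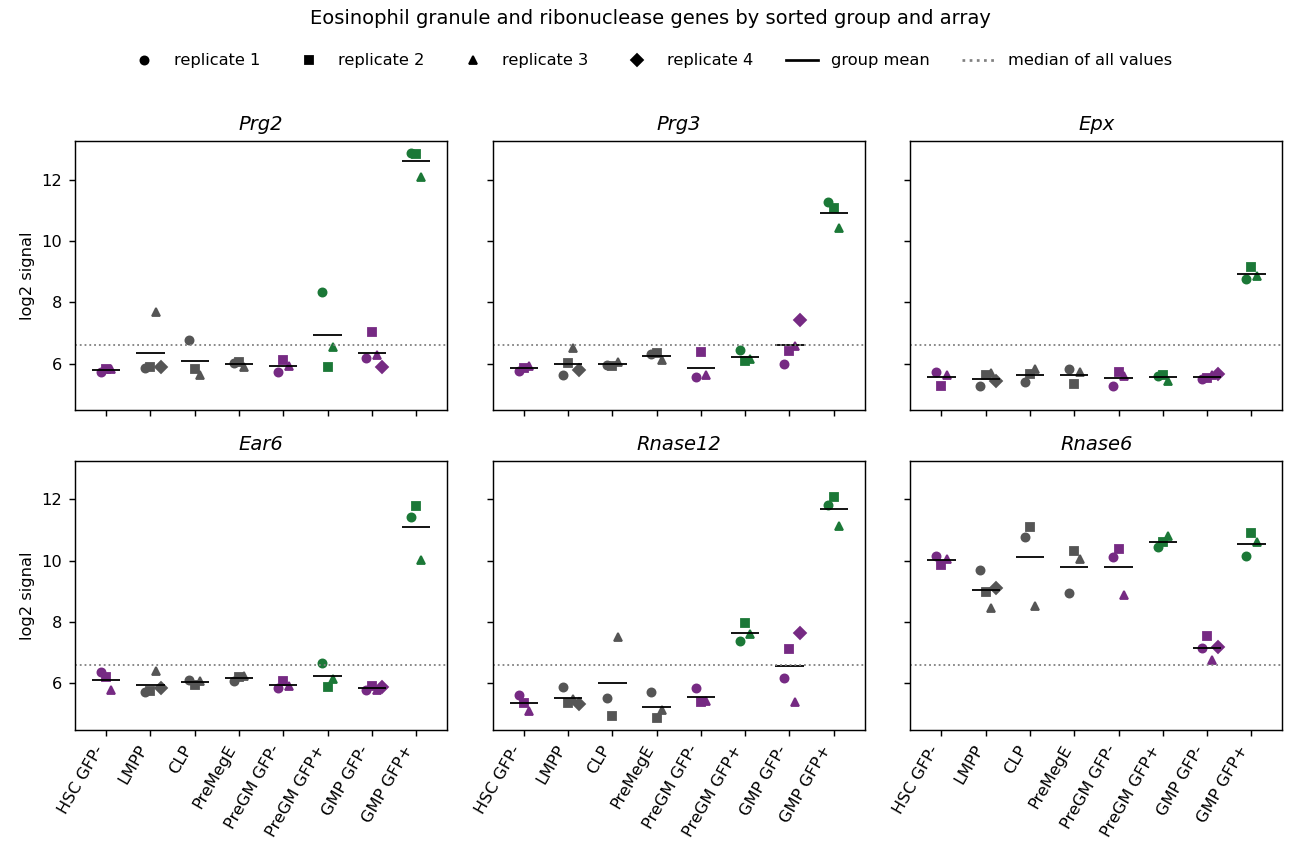
Log2 signal of the 6 measured genes (vertical axis) in each of the 26 arrays by sorted group (horizontal axis). Marker shapes give the replicate number, lines the group means and the dotted line the median of all values, 6.61. Green marks groups named GFP+, purple those named GFP- and grey those with neither in their name, the reporter-negative LMPP included. For Prg2, Prg3, Epx, Ear6 and Rnase12 the 3 GMP GFP+ arrays stand above all 23 others, while Rnase6 is lowest in the 4 GMP GFP- arrays and overlaps elsewhere.

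Across the whole series, 5 of the 6 genes reached their highest signal in GMP GFP+ with no overlap. How many of all genes do so was not counted, so this count is a description only. The lowest GMP GFP+ array and the highest of the other 23 arrays were 12.09 and 8.35 for Prg2, 10.42 and 7.41 for Prg3, 8.77 and 5.84 for Epx, 10.04 and 6.66 for Ear6, and 11.13 and 7.97 for Rnase12. Of those 23 arrays, 4 were above the median signal for Prg2, 1 for Prg3, 0 for Epx, 1 for Ear6 and 6 for Rnase12. In the order of group means, GMP GFP+ was first for each of these genes. Every later pair of neighbouring groups had overlapping arrays, so no order is read between such neighbours. Groups further apart in that order did not always overlap. For Rnase12 the PreGM GFP+ arrays lay at 7.37 to 7.97 and the PreMegE arrays at 4.88 to 5.72. Limma's F test over the 8 groups called all 6 genes, as it did 15.2% of all genes. With GMP GFP+ left out, an alternative added after the data were seen, it called Rnase12 (adjusted p = 0.0127) and Rnase6 (adjusted p = 0.000266), with 13.8% of all genes called. Prg2 (adjusted p = 0.621), Prg3 (0.246), Epx (0.985) and Ear6 (0.565) did not pass over those 7 groups.

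The second comparison splits the earlier PreGM gate by the same reporter. Of the 6 genes 1 was called higher in PreGM GFP+, Rnase12, with 0.908% of all genes called higher there, and 0 were lower. Rnase12 read 7.37, 7.97 and 7.60 in PreGM GFP+ and 5.85, 5.41 and 5.43 in PreGM GFP-, a difference of 2.09 (SE 0.50, adjusted p = 0.0259). The groups did not overlap, but leaving out any 1 of the 6 arrays ended the call, with adjusted p between 0.0553 and 0.112 and differences between 1.93 and 2.23. Rnase6 read 10.45, 10.61 and 10.81 with the reporter and 10.13, 10.39 and 8.88 without it. Those arrays did not overlap either, yet the difference of 0.82 did not pass the test (SE 0.49, adjusted p = 0.632).

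The granule protein genes and Ear6 were not called in this gate. Prg2 read 8.35, 5.89 and 6.54 in PreGM GFP+ and 5.75, 6.12 and 5.91 in PreGM GFP-, a difference of 1.001 (SE 0.49, adjusted p = 0.492). That difference rests on the first PreGM GFP+ array, without which it is 0.29 (adjusted p = 0.987). The same array was also the highest of its group for Ear6, at 6.66 against 5.89 and 6.15, and for Prg3, at 6.45 against 6.08 and 6.16. For Rnase12 it was the lowest. Epx read 5.62, 5.65 and 5.45 with the reporter and 5.26, 5.73 and 5.61 without it, all under the median signal (difference 0.04, SE 0.16, adjusted p = 0.978). The remaining differences were 0.36 for Prg3 (SE 0.28, adjusted p = 0.762) and 0.29 for Ear6 (SE 0.29, adjusted p = 0.838).

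A test of the difference between the GMP and PreGM gates was called for 5 of the 6 genes, all with the larger reporter difference in GMP, where 0.517% of all genes were called in that direction. The excess was 5.25 for Prg2 (SE 0.67, adjusted p = 6.79e-05), the largest of all genes, 4.95 for Ear6 (SE 0.39, adjusted p = 6.77e-08), 3.95 for Prg3 (SE 0.39, adjusted p = 1.97e-06) and 3.30 for Epx (SE 0.22, adjusted p = 4.38e-09). For Rnase12 it was 3.01 (SE 0.69, adjusted p = 0.0371), a call lost when any of 10 of the 13 arrays was left out, with adjusted p up to 0.119. Rnase6 did not pass, at 2.58 (SE 0.67, adjusted p = 0.102). Gata1 itself differed by -0.08 between the gates (SE 0.25, adjusted p = 0.977), with a rise of 1.67 in GMP and 1.75 in PreGM.

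**Figure D2:**
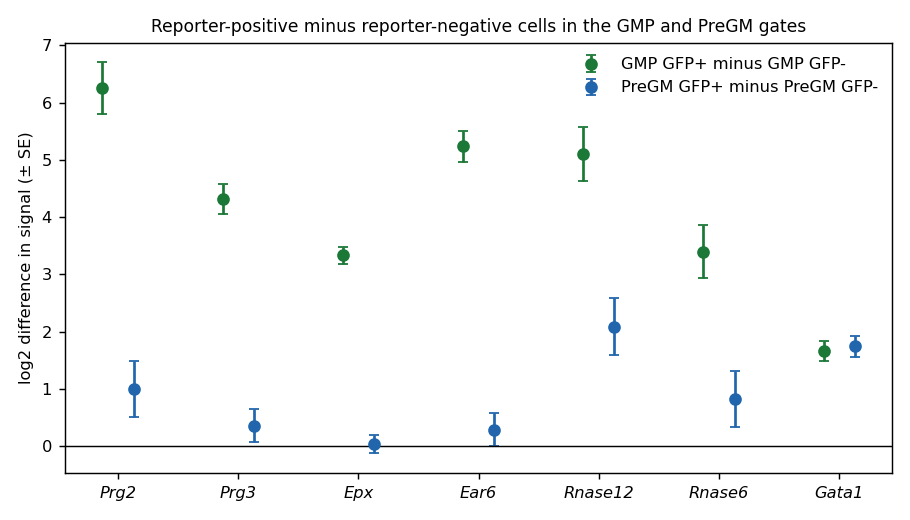
Log2 difference in signal between reporter-positive and reporter-negative cells (vertical axis, mean with standard error from the fit) for the 6 measured genes and Gata1, in the GMP gate (green) and the PreGM gate (blue). The granule and ribonuclease genes differ by 3.34 to 6.25 in GMP and by 0.04 to 2.09 in PreGM, while Gata1 differs by 1.67 and 1.75.

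The 2 reporter-positive populations were also compared directly. Of the 6 genes 5 were higher in GMP GFP+ than in PreGM GFP+, against 0.792% of all genes: Prg2 by 5.67 (adjusted p = 1.19e-07), Ear6 by 4.85 (adjusted p = 2.4e-10), Prg3 by 4.70 (adjusted p = 2.4e-10), Rnase12 by 4.03 (adjusted p = 3.2e-05) and Epx by 3.35 (adjusted p = 1.01e-11). Rnase6 was the exception, at -0.07 (SE 0.49, adjusted p = 0.994). PreMegE cells had Gata1 at 8.47, close to the other Gata1-high groups, and the same 5 genes were higher in GMP GFP+ than there, by 3.28 for Epx to 6.61 for Prg2, where 1.26% of all genes were. Their largest adjusted p was 1.02e-08, that of Rnase12 at 6.44. Rnase6 differed by 0.77 (SE 0.49, adjusted p = 0.743). These comparisons share their GMP GFP+ arrays and are not independent of each other.

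PreMegE and PreGM GFP+ cells differed in none of the 6 genes by this test, which called 0.0652% of all genes in either direction. Rnase12 came closest, at 5.72, 4.88 and 5.13 in PreMegE against 7.37, 7.97 and 7.60 in PreGM GFP+. Its difference was -2.41 (SE 0.50, unadjusted p = 8.6e-05, adjusted p = 0.0952), and the arrays did not overlap. Of the steps between the reporter-negative and early populations, only that from PreGM GFP- to GMP GFP- had a call, for Rnase6, as follows. None of the 6 genes was called between LMPP and HSC GFP- (2.32% of all genes in either direction), between PreGM GFP- and LMPP (0.873%) or between CLP and LMPP (1.57%). At an unadjusted p under 0.05, limma had 0, 0 and 1 of the 6 genes in these, the 1 being Rnase6 between CLP and LMPP. The share of all genes under that unadjusted threshold was not computed, so nothing is read from these counts.

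Rnase6 had another pattern, above the median signal in all 26 arrays and lower in GMP GFP- than in every other group. It read 10.14, 9.85 and 10.05 in HSC GFP-, 9.68, 8.99, 8.46 and 9.11 in LMPP, 10.79, 11.11 and 8.51 in CLP, and 8.96, 10.33 and 10.07 in PreMegE. Group means fell in the order PreGM GFP+ 10.62, GMP GFP+ 10.56, CLP 10.14, HSC GFP- 10.01, PreGM GFP- 9.80, PreMegE 9.79, LMPP 9.06 and GMP GFP- 7.16. Neighbours in this order overlapped except the last pair. From PreGM GFP- to GMP GFP-, Rnase6 fell by 2.64 on the log2 scale (SE 0.46, adjusted p = 0.00217), the 1 gene of the 6 called lower, against 0.471% of all genes. The CLP difference from LMPP was 1.08 (SE 0.46, adjusted p = 0.403) and depended on the third CLP array, whose 8.51 was the lowest of the 3. Without it the difference was 1.89 (adjusted p = 0.0068). The same CLP array was the highest of its group for Rnase12, at 7.53 against 5.52 and 4.95. Its mean deviation of 13 monocyte and dendritic genes was 0.51, against 2.05 and 2.09 in the other CLP arrays, and their part in these values was not tested.

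Among themselves, Prg2, Prg3, Epx, Ear6 and Rnase12 had Pearson correlations of 0.888 to 0.975 over the 26 arrays, and each of them had 0.186 to 0.341 with Rnase6. These values are descriptions that rest on the 3 GMP GFP+ arrays, since over the other 23 arrays all pairs lay between -0.455 and 0.598. The highest of those was Prg2 with Ear6. Outside GMP GFP+ these 2 genes shared single high arrays: the third LMPP array was the highest of its group for Prg2 (7.70), Ear6 (6.42) and Prg3 (6.52), and the first PreGM GFP+ array was named above.

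By the same measure, the genes outside the list with the most similar pattern over 26 arrays, among 11557 searched, were largely shared. The search took only genes whose highest group mean was above the median signal, and passed over gene models, clones, small RNAs and receptor segments. Mmp27, a matrix metalloproteinase gene, and Prss34, a serine protease gene of mast cells and basophils, were among the 3 closest to Prg2 (0.967 and 0.946), Prg3 (0.966 and 0.957), Epx (0.958 and 0.981) and Ear6 (0.975 and 0.974). The third gene was the transporter gene Abca8b for Prg2 (0.946), Cyp11a1, whose enzyme starts steroid synthesis, for Prg3 (0.942) and Epx (0.957), and the cytokine gene Il6 for Ear6 (0.957). Mmp27, Prss34, Abca8b, Cyp11a1 and Il6 had a group mean above the median signal only in GMP GFP+, and so entered the search through that group. Their correlations and their sharing are therefore descriptions only. Rnase12 had other close genes: the lipid enzyme gene Lpcat2 (0.928), the leukotriene enzyme gene Alox5 (0.926) and the granzyme gene Gzmb (0.917). In PreGM GFP+ and PreGM GFP- these 3 genes averaged 7.87 and 7.22, 7.17 and 6.15, and 7.07 and 5.68. For Rnase6 the closest were the histone gene H2bc21 (0.804), the lectin gene Clec2d (0.725) and the antigen presentation gene H2-Oa (0.723), whose mean signals were lowest in GMP GFP-, at 7.96, 7.79 and 6.89. Over the 23 arrays without GMP GFP+, chosen after the data were seen, most of these genes were replaced. Prg3, Epx and Ear6 then kept 0 of their 3 closest genes. Of the 3 genes each, Prg2 kept Mmp27 (0.679), Rnase12 kept Lpcat2 (0.702), and Rnase6 kept H2bc21 (0.807) and Clec2d (0.788).

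Genes next to the members on the chromosome, picked after the data were seen, were mostly not called in the GMP comparison. Of all genes, 7.27% were called there in either direction. Prg2 and Prg3 lie side by side on chromosome 2, followed by P2rx3, a receptor channel gene of sensory neurons. P2rx3 has 2 probe sets that disagreed. The one used, which lists a cDNA but no RefSeq transcript of P2rx3, read 9.66, 9.06 and 8.57 in GMP GFP+ and 5.74, 6.05, 8.07 and 5.81 in GMP GFP-, a difference of 2.68 (SE 0.39, adjusted p = 8.04e-05). The one that lists the RefSeq transcript averaged 6.004 and 5.89, a difference of 0.11 (SE 0.18, adjusted p = 0.747). That adjusted p comes from a limma fit with all named probe sets as separate features. In the same fit the probe set used had an adjusted p of 0.000103. The signal next to Prg3 is therefore not given as that of P2rx3. On the other side, Slc43a3 differed by -0.58 (adjusted p = 0.157) and Rtn4rl2 by 0.06 (adjusted p = 0.788).

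Epx on chromosome 11 lies near the other haem peroxidase genes. Mpo, which encodes the peroxidase of neutrophil granules, differed by -0.48 in the GMP comparison (adjusted p = 0.227) and Lpo, the lactoperoxidase gene, by -0.02 (adjusted p = 0.929), with neither called. On chromosome 14, the ribonuclease genes beside Rnase12 were not called either, with Rnase10 at 0.20, Rnase9 at 0.12 and Rnase11 at 0.24. Of the measured neighbours of Ear6 up to 3 places away, Gm5800, Ang4, AY358078, Mettl17, Slc39a2 and Ndrg2, none was called. Rnase1, Rnase2b and Ang2 beside Rnase6 were not called. At 7.27% of all genes called, the lack of calls among neighbours is not set apart from the background. Lpo, Rnase9, Rnase10, Rnase11, Gm5800, AY358078, Rnase1, Rnase2b and Ang2 also averaged under the median signal in every group. Their small differences therefore say little.

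**Figure D3:**
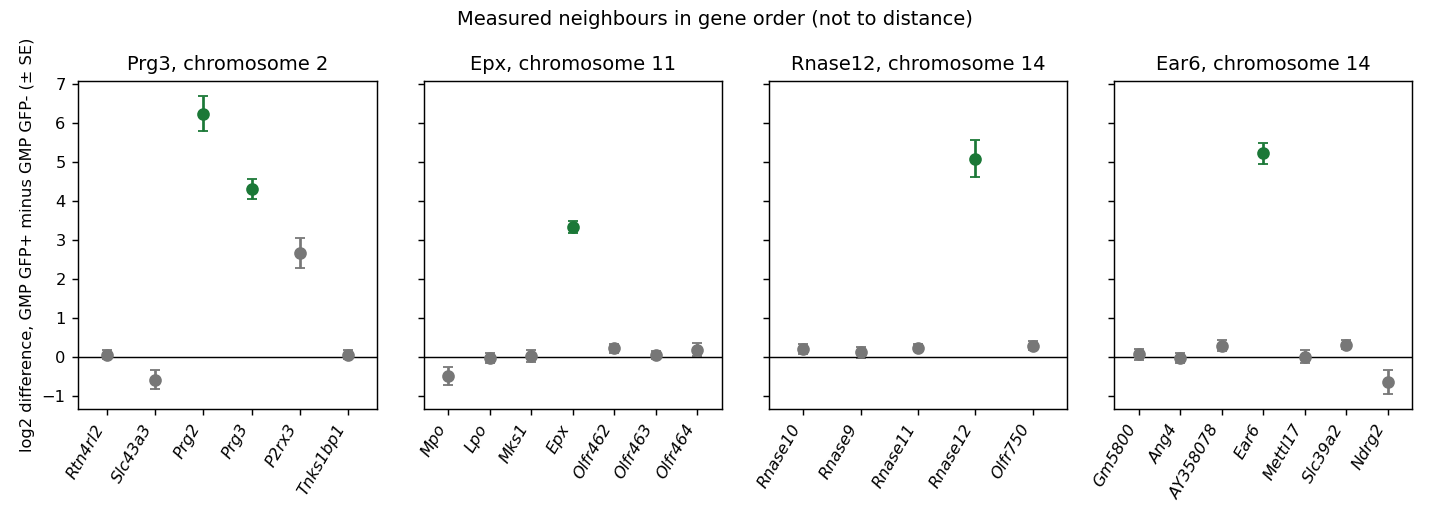
Log2 difference between GMP GFP+ and GMP GFP- (vertical axis, mean with standard error) of measured genes in their order along the chromosome around Prg3, Epx, Rnase12 and Ear6, with the granule and ribonuclease genes in green and their neighbours in grey. Apart from the signal named P2rx3 at 2.68, which its other probe set does not share, the grey points stay between -0.65 and 0.32.

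Most of the wider RNase A family was at low signal. Of 18 further family genes and their inhibitor, 12 had a probe set, of which 10 were under the median signal in every array. The others were Ang4, an antimicrobial angiogenin gene with group means of 6.48 to 6.87, and the inhibitor gene Rnh1, whose lowest group mean was 8.00. Of the 12, 0 were called in either direction in the GMP comparison (median difference 0.10). At 7.27% of all genes called in that comparison, their count is not set apart from the background. Among them were the eosinophil ribonuclease genes Ear14, with group means of 4.58 to 4.80 over the 8 groups, Rnase2a and Rnase2b, all under the median signal in every array. Of 3 measured peroxidase relatives of Epx, 0 were called in the GMP gate and Mpo fell by 1.64 in PreGM GFP+ (SE 0.25, adjusted p = 0.00033).

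Receptors that eosinophils and their precursors carry changed in GMP GFP+ by smaller amounts than the granule genes: 8 of 16 measured rose and 2 fell, with a median of 0.49, against 3.22% and 4.05% of all genes. Csf2rb2, a beta chain that signals for interleukin-3, rose by 2.22 (SE 0.20, adjusted p = 9.32e-08), the histamine receptor gene Hrh4 by 1.28 (SE 0.24, adjusted p = 0.00171) and Il5ra, the receptor chain for the eosinophil growth factor interleukin-5, by 1.14 (SE 0.13, adjusted p = 3.77e-06). Il5ra stayed under the median signal in all arrays, from a mean of 4.74 to 5.88, and Hrh4 went from 5.03 to 6.31, with 2 of the 3 GMP GFP+ arrays under it. Itgam, the integrin chain of CD11b, fell by 1.30 (SE 0.26, adjusted p = 0.00245). The other gene that fell was Pilra (-0.66, SE 0.20, adjusted p = 0.0476). Csf2rb, Csf2ra, Adgre1, Cd244a, Ptgdr2 and Fcgr3 were not called. These, too, are named after their values were seen. The eotaxin receptor gene Ccr3 (0.86, adjusted p = 0.00421) and Siglecf (0.57, adjusted p = 0.00194), defining surface markers of mouse eosinophils and named here after their values were seen, also rose, Ccr3 to a mean of 6.53 with 2 of the 3 arrays under the median signal. Without the third GMP GFP+ array 5 rose and 1 fell. In PreGM GFP+, 1 of the 16 rose, Siglecf by 0.55 (adjusted p = 0.011), and 0 fell, against 0.908% and 1.14% of all genes. Siglecf was not called without the first or the third PreGM GFP- array, without the third PreGM GFP+ array, or with only the arrays of these groups.

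Regulators of eosinophil differentiation rose in 7 of 18 and fell in 2 in GMP GFP+ (median 0.34), against 3.22% and 4.05% of all genes. This list, like the other gene lists here, was chosen with earlier results of these data known. Its counts are therefore descriptions only. The 18 include Gata1, counted as higher in both gates. The cells were sorted on its reporter, so its part in these counts follows from the sort. Id2, which encodes an inhibitor of helix-loop-helix factors, rose by 2.90 (SE 0.35, adjusted p = 6.73e-06), the Ikaros family gene Ikzf2 by 2.84 (SE 0.20, adjusted p = 1.03e-09), Lmo4 by 2.64 (SE 0.26, adjusted p = 4.47e-07) and Gata2 by 2.36 (SE 0.17, adjusted p = 3.01e-09). The 2 that fell, named after their values were seen, were Irf8 and Spi1. The monocyte regulator Irf8 fell by 2.05 (SE 0.31, adjusted p = 0.000117). Spi1, the gene of PU.1, fell by 1.12 (SE 0.30, adjusted p = 0.0251). The other 9 were not called. Among these were the C/EBP genes Cebpa (-0.08), Cebpb (-0.27) and Cebpe (-0.63, adjusted p = 0.0751). In PreGM GFP+, 3 of the 18 rose and 2 fell (0.908% and 1.14% of all genes did), and among them Id2 fell by 2.08 (SE 0.37, adjusted p = 0.00168) and Gata2 rose by 1.80 (SE 0.19, adjusted p = 1.74e-06). Of 13 genes of granule packing and secretion 1 rose in GMP GFP+, Ndst2, an enzyme of heparin synthesis, by 1.81 (SE 0.18, adjusted p = 5.33e-07). The vesicle transport gene Lyst fell by 1.68 (adjusted p = 0.000158) and Rab27a, of the same pathway, fell by 1.09 (adjusted p = 3.56e-05).

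Markers of other cell types moved in the same comparison. Mast cell and basophil genes rose in 13 of 20 in GMP GFP+ and fell in 0 (median 0.90), where 3.22% of all genes rose. Among them were the IgE receptor genes Fcer1a (6.30, adjusted p = 7.09e-11) and Ms4a2 (5.37, adjusted p = 3.72e-12), Gzmb (5.56, adjusted p = 2.49e-12) and the monoamine transporter gene Slc18a2 (3.96, adjusted p = 2.49e-12). The mean deviation of these 20 genes was 1.77 to 1.90 in the GMP GFP+ arrays, 0.34 to 0.50 in PreGM GFP+, and at most -0.11 in every other array. In PreGM GFP+ 5 of the 20 rose, against 0.908% of all genes, and 0 fell. Among those that rose were Ms4a2 by 3.72 (adjusted p = 1.54e-08), Fcer1a by 3.45 (adjusted p = 7.6e-06) and Slc18a2 by 1.63 (adjusted p = 1.72e-05). Of the granule and ribonuclease genes, Rnase12 was called higher in this gate, and Prg2, Prg3, Epx, Ear6 and Rnase6 were not called. Within PreGM GFP+, the array with the highest Prg2, Prg3 and Ear6 and the lowest Rnase12 had the lowest deviation of this list, 0.34 against 0.48 and 0.50. As this is 1 array of 3, nothing is read from it. The part of such cells in the granule and ribonuclease signals was not tested.

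Of 16 neutrophil granule genes, 10 fell in GMP GFP+, where 4.05% of all genes did, and 0 rose (median -2.42), with Hp at -3.75 (adjusted p = 3.01e-09), Chil3 at -3.48 (adjusted p = 1.31e-05), Ltf at -3.09 (adjusted p = 0.000943) and Elane at -3.09 (adjusted p = 1.28e-09). Monocyte and dendritic genes fell in 8 of 13, led by F13a1 at -4.04 (adjusted p = 2.01e-07), and rose in 1, where 3.22% of all genes rose. Of 9 erythroid and megakaryocyte genes 5 rose, against the same 3.22%, and 0 fell, with the carbonic anhydrase gene Car1 at 4.65 (adjusted p = 4.04e-10). Of 10 lymphoid genes 0 were called. At 7.27% of all genes called in either direction, that count is not set apart from the background. Rnase6 thus had its lowest signal in the arrays where the mean deviation of the neutrophil list was highest. Whether these are linked was not tested.

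**Figure D4:**
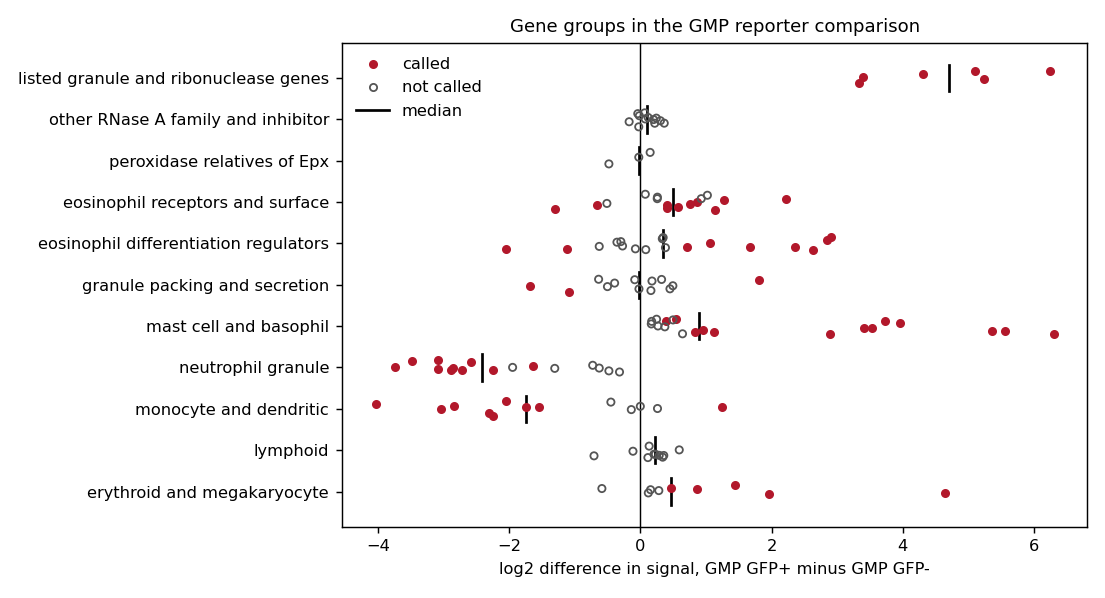
Log2 difference between GMP GFP+ and GMP GFP- (horizontal axis) of each measured gene by gene group (vertical axis), filled where called and open where not, with a bar at each group's median. The 6 listed granule and ribonuclease genes lie between 3.34 and 6.25, the other RNase A family genes lie around 0 and the neutrophil granule genes have a median of -2.42.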

How the data were processed

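Affymetrix Mouse Gene 1.1 ST arrays measured RNA of 26 sorted samples. Per probe set and array the authors deposited a log2 signal, and the submitters' processing notes name RMA and oligo, without versions or settings. The base of the logarithm is not given in the sources used here and was taken as base 2, the base of RMA. Probe sets were named through the annotation of the 1.0 ST version of the array. Of 35556 probe sets, 21789 named 1 gene, 1621 several and 12146 none. The probe set with the highest mean stood for each of the 19938 genes (999 had several). limma 3.58.1 in R 4.3.3 fitted 1 mean per group over all 26 arrays, with p-values adjusted by Benjamini-Hochberg over all genes and a threshold of 0.05. Arrays of equal replicate number were not paired: over 84 such pairs, deviations from group means correlated between -0.26 and 0.33 (median 0.03). The script was tested on simulated data. Members, gene lists and comparisons were chosen with earlier results of these data known. Named genes are all measured members, up to 4 called genes of a list by size of difference in GMP, and the 3 most correlated genes per member; others were named after their values were seen. Alternatives were a replicate block, other scalings, array weights, filters, probe-set rules and leaving out each array. Promoter windows came from RefSeq (GRCm38.p6), and that of Prg2 was not used here.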

Additional observations from a re-analysis of the deposited data

Results flagged for a closer look

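Single arrays stood apart in 3 groups of 4 arrays, by a test of the gap between the extreme array and its nearest neighbour, and chance marks about 1 in 20 groups, of which 16 were tested here. The third LMPP array read 7.70 for Prg2, where the other 3 lay at 5.87 to 5.91, and 6.42 for Ear6, where the others lay at 5.74 to 5.84. The third GMP GFP- array read 8.07 for the probe set of P2rx3 next to Prg3, where the others lay at 5.74 to 6.05, while its Prg2 (6.29) and Prg3 (6.59) signals lay within their group.

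Reporter differences that were larger in the GMP gate than in the PreGM gate, by a test of that difference, were found for Prg2 (5.25), Prg3 (3.95), Epx (3.30), Ear6 (4.95) and Rnase12 (3.01), with the adjusted p-values given in the report.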

How the results depend on the processing

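Of the member differences recomputed under the alternatives, 1011 kept their side of the threshold, 17 lost a call, 4 gained one and no called difference changed sign. Of the 1011, 37 changed sign, all of them not called, with main differences of at most 0.48. The counts of genes called stayed at 6 for the GMP comparison under every alternative, arrays left out included. Prg3, Epx and Ear6 pass the filter of at least 3 arrays above the median signal only through their GMP GFP+ arrays. For these genes, that filter is therefore no check of the call. The replicate block, fixed or random, changed no member's call (6 called in GMP, 1 in PreGM, 5 for the difference between gates). Weighting arrays by precision gave 0 called in PreGM (213 genes in all against 408; Rnase12 adjusted p = 0.22) and 1 between PreMegE and PreGM GFP+ (Rnase12 at -2.48, adjusted p = 0.0256). The F test without GMP GFP+ called 2 instead of 6. Leaving out single arrays gave 0 to 0 called in PreGM, 4 to 5 for the difference between gates and 0 to 1 between CLP and LMPP (Rnase6, without the third CLP array), and did not move the other counts. With only the arrays of the groups compared, Rnase6 passed the test between gates (adjusted p = 0.0129), as it did without the third PreGM GFP- array (adjusted p = 0.0348). Averaging probe sets lowered P2rx3 from 2.68 to 1.40. With only genes above the median signal in at least 3 arrays, 4 eosinophil receptor genes rose and 1 fell, and 8 mast cell and basophil genes rose. Signals of Prg2, Prg3, Epx, Ear6 and Rnase12 outside GMP GFP+ were mostly under the median signal and were not shown to exceed background. The cause of these changes was not tested.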
